A study of Mus musculus with 6 samples.

Results

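Genes that type I interferon switches on were followed in the hippocampus after cerebral hypoperfusion: the Ifit genes Ifit1, Ifit2, Ifit3 and Ifit3b, and the classic targets Isg15, Usp18, Rsad2, Ifi44, Ifi27l2a and Bst2. They were chosen by name, matched by gene symbol and make up 10 of the 54752 genes in the count tables. RNA-seq was done on the whole right hippocampus of 6 male wild type mice, 1 mouse per library, of the strain C57BL/6 in the labels and C57BL/6 J in the methods of the study. In the BCAS group (bilateral carotid artery stenosis, n = 3), microcoils around both common carotid arteries narrowed them, with the tighter coil on the right. In the Sham group (n = 3), the arteries were exposed in the same operation and no coils were placed. Both groups are listed at 14 weeks and were taken 3 weeks after surgery. The coils sit on both sides, and only the hippocampus on the side of the tighter coil was sequenced.

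Type I interferons (the IFN-α family, IFN-β and a few relatives) bind the receptor made of IFNAR1 and IFNAR2. The kinases JAK1 and TYK2 then activate the complex ISGF3, which holds STAT2 and IRF9 and binds the interferon-stimulated response element (ISRE) in the promoters of target genes. In the brain, microglia, astrocytes, endothelial cells and neurons can all answer to type I interferon, and transcripts of this kind are a known part of microglial states after injury and in ageing.

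RefSeq promoter windows of 300 bases, from 250 bases before a gene's start to 50 after it (GRCm38.p6), were found for 8 of the 10 genes. Usp18 and Ifi27l2a had no entry. The ISRE core was searched as GAAA, any 2 bases and GAAA again, which on the other strand reads TTTC, any 2 bases and TTTC, and it occurred in 3.44% of all 32851 windows. Of the 8 genes, 6 held it, and their stretches are shown because the ISRE is the element through which ISGF3 is known to act. Each is printed on the strand of its gene, 5′ to 3′, with the matches in capitals; matches may overlap.
Isg15, chr4:156200855-156200916, minus strand: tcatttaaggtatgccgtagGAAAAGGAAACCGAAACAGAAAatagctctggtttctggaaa
Bst2, chr8:71537567-71537622, minus strand: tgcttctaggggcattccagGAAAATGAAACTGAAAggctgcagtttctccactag
Rsad2, chr12:26456543-26456592, minus strand: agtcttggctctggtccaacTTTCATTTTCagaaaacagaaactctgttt
Ifit3, chr19:34583353-34583436, plus strand: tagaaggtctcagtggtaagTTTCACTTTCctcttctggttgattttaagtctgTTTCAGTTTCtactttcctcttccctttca
Ifit1, chr19:34640765-34640833, plus strand: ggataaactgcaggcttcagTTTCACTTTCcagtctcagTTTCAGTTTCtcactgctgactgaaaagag

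The stretch of Isg15 carried 3 overlapping matches, that of Bst2 carried 2 overlapping matches, those of Ifit3 and Ifit1 carried 2 separate matches each, and that of Rsad2 carried 1. The matches began 78, 72 and 66 bases before the start of Isg15, 130 and 124 before Bst2, 120 before Rsad2, 156 and 122 before Ifit3, and 104 and 85 before Ifit1. The stretch of Ifit3b at chr19:34607749-34607832 had the same 84 bases as that of Ifit3, with matches beginning 188 and 154 bases before its start. No match to these letters was present in the windows of Ifit2 and Ifi44. A match is a run of letters and not a measured binding site.

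The libraries held 29652456 to 35607098 counts each, and 18617 genes passed the filter on low counts, all 10 of the genes described here among them. Levels are given as CPM, counts scaled to a common library size, after TMM normalization, and 3 counts in a library, taken as the limit of detection, were worth 0.0874 to 0.0994 CPM. Differentially expressed genes (DEGs) were those past 1 on the log2 fold scale, up or down, with a Benjamini-Hochberg adjusted P under 0.05 over all tested genes in edgeR's quasi-likelihood test. The markers Prox1, of dentate granule cells, and Wfs1, of CA1 neurons, were present in every library, at log2 differences of -0.14 and -0.30 without a call, whereas the other 6 hippocampal neuron markers were lower in every BCAS mouse than in every Sham mouse. Libraries stood apart in the markers of choroid plexus, the tissue that makes cerebrospinal fluid. Its 6 markers summed to 928, 3938 and 45.9 CPM in Sham mice 1, 2 and 3 and to 5726, 36.9 and 3100 CPM in BCAS mice 1, 2 and 3. Without any single one of these mice, all 10 genes were still called. Both groups held libraries high and low in these markers, so leaving out 1 mouse cannot separate their part, which was not tested. Mitochondrial counts made up 6.90, 6.92 and 6.99% in Sham mice 1, 2 and 3. In BCAS mice 1, 2 and 3 they made up 6.07, 6.56 and 6.02%, without overlap between groups. How this share relates to the 10 genes was not tested.

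All 10 genes rose after BCAS. Each was an up-regulated DEG, a call made for 8.47% of all tested genes, and in each the lowest BCAS mouse lay above the highest Sham mouse, which held for 25.3% of all tested genes. The median log2 fold change of the 10 genes was 3.12, beside 0.018 for all tested genes, and the 10 values ran from 1.93 for Ifit2 to 5.25 for Ifi27l2a. The lowest BCAS mouse exceeded the highest Sham mouse by 2.20-fold for Ifit2 and by 23.1-fold for Ifi27l2a, with the other 8 genes between. Summed over the 10 genes, the level was 29.8, 29.3 and 35.9 CPM in Sham mice 1, 2 and 3 and 178, 201 and 335 CPM in BCAS mice 1, 2 and 3.

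**Figure D1:**
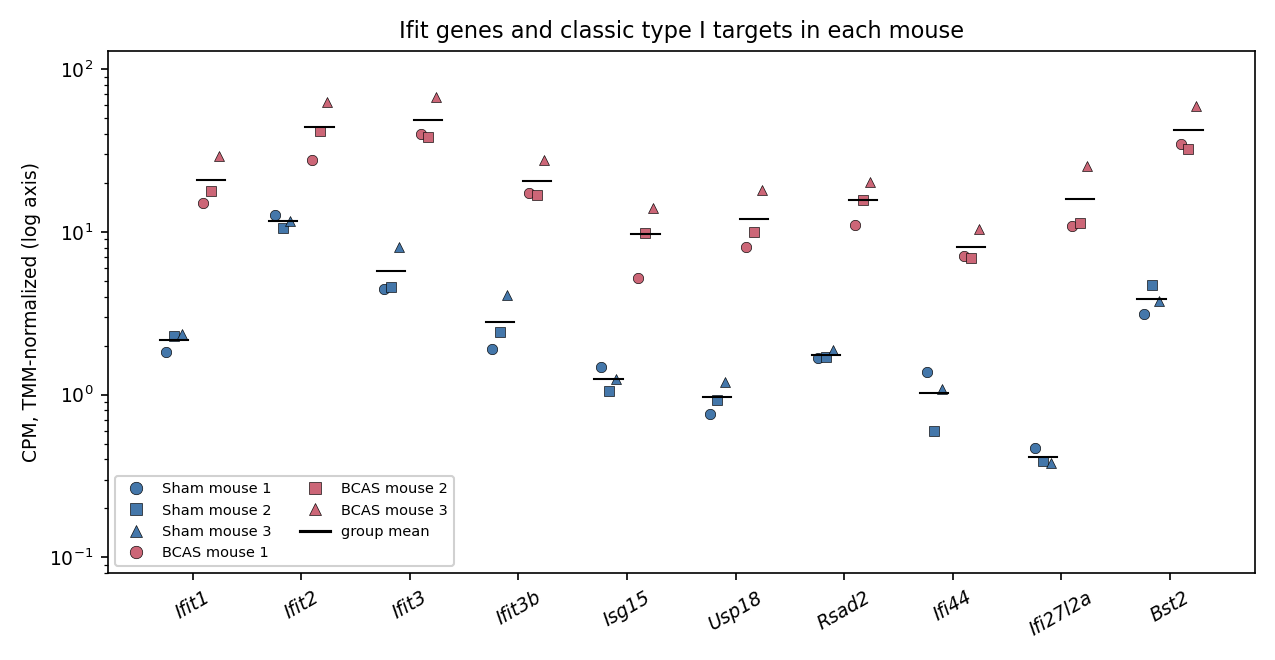
TMM-normalized CPM of the 10 genes on a log axis, with 1 symbol per mouse (blue, Sham; red, BCAS) and a black line at each group mean. In every gene the 3 BCAS mice sit above the 3 Sham mice, and BCAS mouse 3 is the highest.

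The Ifit genes encode proteins with tetratricopeptide repeats that bind RNA and hold back translation of viral RNA. Ifit1 (ENSMUSG00000034459.8, chromosome 19, 34640871 to 34650009 in mm10, plus strand), whose protein recognizes RNA caps that lack the methyl mark of host mRNA, measured 1.83, 2.30 and 2.36 CPM in Sham mice 1, 2 and 3. In BCAS mice 1, 2 and 3 it measured 15.1, 18.0 and 29.1 CPM. The groups were far apart, and BCAS mouse 3 stood highest. The means were 2.16 ± 0.292 and 20.8 ± 7.41 CPM (SD, n = 3 per group), and the log2 fold change was 3.26 (SE 0.26, edgeR adjusted P = 5.31e-05).

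Ifit2 (ENSMUSG00000045932.12, chromosome 19, 34550694 to 34576419, plus strand), a partner of the other IFIT proteins, measured 12.7, 10.6 and 11.7 CPM in the Sham mice and 27.8, 42.0 and 63.3 CPM in the BCAS mice. It had the highest Sham CPM of the 10 genes and the smallest rise, and its BCAS mice were spread widely. Means were 11.7 ± 1.02 and 44.4 ± 17.8 CPM (SD, n = 3 per group), and the log2 fold change was 1.93 (SE 0.26, edgeR adjusted P = 0.000822). Ifit3 (ENSMUSG00000074896.3, chromosome 19, 34583531 to 34588731, plus strand), which in human cells stabilizes IFIT1, measured 4.45, 4.58 and 8.13 CPM in the Sham mice and 39.9, 38.3 and 67.2 CPM in the BCAS mice. In both groups mouse 3 was the highest, with no overlap between groups. The log2 fold change was 3.08 (SE 0.29, edgeR adjusted P = 0.000128).

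Ifit3b (ENSMUSG00000062488.9, chromosome 19, 34607970 to 34613401, plus strand) is a near copy of Ifit3. It measured 1.92, 2.42 and 4.11 CPM in the Sham mice and 17.4, 16.9 and 27.7 CPM in the BCAS mice, with the same order of mice as Ifit3. The log2 fold change was 2.87 (SE 0.30, edgeR adjusted P = 0.000208). The coding sequences of Ifit3 and Ifit3b are 1209 bases each with 11 mismatches and no gap, an identity of 99.1%. Of all 150-base windows, 18.5% of those in Ifit3 transcripts and 16.0% of those in Ifit3b transcripts occur in the other gene, so reads that matched both were not counted and the split between the copies is uncertain. Ifit3b took 30.1, 34.6 and 33.6% of the counts of both copies in Sham mice 1, 2 and 3 and 30.4, 30.6 and 29.2% in BCAS mice 1, 2 and 3. The exact 95% binomial intervals cover counting error only, and they are too narrow even for that, since both mates of a fragment can count. They were widest in Sham mouse 1 (24.1 to 36.7%) and narrowest in BCAS mouse 3 (27.6 to 30.9%). The mean share was 32.8 ± 2.37% in Sham and 30.1 ± 0.740% in BCAS (SD, n = 3 each), and the groups overlapped. The difference of -2.69 points had an exact two-sided permutation P of 0.3, where 0.1 is the smallest that 3 against 3 mice allow. Its size depended on single mice, at -4.02 points without Sham mouse 1 and -1.76 points without Sham mouse 2.

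Isg15 and Usp18 act on the same protein modification. Isg15 (ENSMUSG00000035692.6, chromosome 4, 156199424 to 156200818, minus strand) encodes a ubiquitin-like protein that is attached to other proteins. It measured 1.47, 1.05 and 1.25 CPM in the Sham mice and 5.20, 9.90 and 14.0 CPM in the BCAS mice. BCAS mouse 1 was the lowest of its group, at 169 counts against 438 in BCAS mouse 3, and still above all Sham mice. Means were 1.26 ± 0.214 and 9.71 ± 4.42 CPM (SD, n = 3 per group), and the log2 fold change was 2.94 (SE 0.36, edgeR adjusted P = 0.000473).

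Usp18 (ENSMUSG00000030107.10, chromosome 6, 121245906 to 121270917, plus strand) encodes the protease that removes ISG15 and also binds IFNAR2 to damp the receptor. It measured 0.767, 0.927 and 1.19 CPM in the Sham mice and 8.06, 9.94 and 18.1 CPM in the BCAS mice, with a wide gap between the groups. Means were 0.963 ± 0.216 and 12 ± 5.3 CPM (SD, n = 3 per group), and the log2 fold change was 3.64 (SE 0.34, edgeR adjusted P = 0.000122), second to Ifi27l2a. Its exons share 124 bases (4.44%) with the antisense gene Gm44148, which had 0 to 3 counts per library. Strand was not used in counting, so reads in those bases cannot be assigned to either gene.

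The other 4 genes include antiviral effectors. Rsad2 (ENSMUSG00000020641.16, chromosome 12, 26442746 to 26456452, minus strand) encodes viperin, which makes a chain-terminating nucleotide. It measured 1.68, 1.70 and 1.89 CPM in the Sham mice and 11.1, 15.7 and 20.3 CPM in the BCAS mice. The Sham mice were almost level, with the lowest coefficient of variation of the 10 genes (6.62%). The log2 fold change was 3.15 (SE 0.24, edgeR adjusted P = 3.81e-05).

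Bst2 (ENSMUSG00000046718.8, chromosome 8, 71534255 to 71537456, minus strand) encodes tetherin, which holds budding virus at the cell surface. Its levels were 3.16, 4.73 and 3.79 CPM in the Sham mice and 34.9, 32.5 and 59.7 CPM in the BCAS mice. BCAS mice 1 and 2 were close together and mouse 3 stood above them. The log2 fold change was 3.44 (SE 0.26, edgeR adjusted P = 4.31e-05).

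Ifi44 (ENSMUSG00000028037.13, chromosome 3, 151730922 to 151749960, minus strand) measured 1.39, 0.598 and 1.08 CPM in the Sham mice and 7.10, 6.92 and 10.4 CPM in the BCAS mice. Sham mouse 2 had only 20 counts, and the BCAS mice were the closest to each other of the 10 genes, with a coefficient of variation of 24.1%. The log2 fold change was 2.99 (SE 0.31, edgeR adjusted P = 0.000198). Ifi27l2a (ENSMUSG00000079017.3, chromosome 12, 103442167 to 103443680, minus strand), a small protein induced by interferon, measured 0.472, 0.389 and 0.379 CPM in the Sham mice and 10.9, 11.3 and 25.5 CPM in the BCAS mice. It went from 13 to 16 counts per Sham mouse to 342 to 796 per BCAS mouse, and BCAS mice 1 and 2 were nearly equal. The means were 0.413 ± 0.0511 and 15.9 ± 8.30 CPM (SD, n = 3 per group), and the log2 fold change was 5.25 (SE 0.41, edgeR adjusted P = 4.68e-05), rank 53 among the rises of all 18617 tested genes.

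The 10 rises were compared with each other by the log2 ratio of the counts of genes next to each other in the order of fold change. The ratio of Ifi27l2a to Usp18 was 1.58 (SE 0.29) higher in BCAS mice and that of Ifit3b to Ifit2 was 1.06 (SE 0.40) higher, and in both the groups did not overlap. In the other 7 neighbouring pairs the groups overlapped. For these ratios and the 4 with neighbouring relatives given further on, 13 in all, the exact two-sided permutation P was 0.1 at its smallest (adjusted 0.217), so no ratio could pass 0.05 in this design.

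Per kilobase of exon (RPKM), the order of levels in Sham mice was led by Bst2 at 4.31 ± 0.875, Ifit3 at 3.28 ± 1.20 and Ifit2 at 2.97 ± 0.259 RPKM (SD, n = 3), whose ranges overlapped from neighbour to neighbour. Isg15, Ifit3b, Ifi27l2a and Ifit1 followed at 1.66 to 0.815 RPKM. Rsad2 and Usp18 were lower at 0.406 and 0.345 RPKM, and Ifi44 was the lowest at 0.167 ± 0.0648 RPKM. After BCAS, Bst2 still led at 46.9 ± 16.7 RPKM, Ifi27l2a came next at 34.4 ± 17.9 RPKM, up from place 6 in Sham, and Ifit3 followed at 27.8 ± 9.29 RPKM, with overlapping ranges. Isg15, Ifit2, Ifit3b, Ifit1, Usp18 and Rsad2 formed a run from 12.8 to 3.62 RPKM in which each range overlapped the next, and Ifi44 again stood alone at the bottom at 1.33 ± 0.320 RPKM.

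BCAS mouse 3 had the highest level of all 10 genes. Its level exceeded that of the lowest BCAS mouse by 1.5-fold (Ifi44) to 2.70-fold (Isg15), and the lowest mouse was BCAS mouse 1 for 6 genes and BCAS mouse 2 for 4. The coefficient of variation among BCAS mice was 24.1 to 52.2%, against 6.62 to 40.7% among Sham mice. Without BCAS mouse 3 the median log2 fold change of the 10 genes was 2.85, and all 10 were still called. The same mouse was also highest in all 10 microglia markers, and this was not particular to microglia. Among BCAS mice it also had the highest summed level of monocyte and neutrophil, T cell, border macrophage, endothelial and oligodendrocyte markers. It had the lowest sum of hippocampal neuron markers, and it was not the highest for astrocyte or choroid plexus markers. The share of all tested genes that were highest in this mouse was not computed.

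The 4 Ifit genes lie within 99.3 kb on chromosome 19, on 1 strand, and their Ifit neighbours on the other strand had smaller fold changes. Ifit1bl1, which lies between Ifit3 and Ifit3b, measured 3.95, 2.75 and 3.53 CPM in the Sham mice and 2.98, 3.01 and 2.66 CPM in the BCAS mice. The groups overlapped, with a log2 difference of -0.24 (SE 0.21, edgeR adjusted P = 0.423). Ifit1bl2 starts 127 bases from Ifit1 in the opposite direction, so that the stretch of Ifit1 printed above also lies in the promoter window of Ifit1bl2, read from the other strand. Ifit1bl2 went from 0.904 ± 0.107 to 1.61 ± 0.0696 CPM (SD, n = 3 per group), and the log2 fold change was 0.83 (SE 0.27, edgeR adjusted P = 0.0468), short of the fold threshold. Without any 1 of the 6 mice the edgeR adjusted P of Ifit1bl2 was 0.0801 to 0.138. Ifit1 shares 1.24% of its 150-base windows with Ifit1bl2.

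Ifit1bl1 also holds an ISRE core, shown because this relative was not called.
Ifit1bl1, chr19:34602043-34602092, minus strand: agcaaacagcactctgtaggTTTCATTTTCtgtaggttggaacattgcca
The match begins 104 bases before the start of this window's transcript. A further listed start of Ifit1bl1 also has a match, which begins 23 bases before it. The log2 ratio of Ifit3 to Ifit1bl1 was 3.32 (SE 0.44) higher in BCAS mice and that of Ifit1 to Ifit1bl2 was 2.38 (SE 0.32) higher, each without overlap between groups (exact two-sided permutation P = 0.1, adjusted 0.217, n = 3 each).

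Within 100 kb of the cluster, Ch25h, which makes 25-hydroxycholesterol and is itself an interferon target, was at 0.501 ± 0.162 CPM in Sham and rose to 17.7 ± 8.29 CPM in BCAS mice (SD, n = 3 per group), and the log2 fold change was 5.13 (SE 0.41, edgeR adjusted P = 4.93e-05). Lipa, the lysosomal acid lipase, was at 23.9 ± 0.657 CPM in Sham and rose to 54.4 ± 5.54 CPM in BCAS mice, where the log2 fold change was 1.19 (SE 0.09, edgeR adjusted P = 4.93e-05). Gm26902, which overlaps Ch25h on the other strand, had a log2 fold change of 0.92 (edgeR adjusted P = 0.0369), and reads in the shared bases cannot be told apart. Slc16a12, a transporter, was called at 1.19 (edgeR adjusted P = 0.0298), but its groups overlapped, and its counts were highest in BCAS mice 1 and 3 and Sham mouse 2, the 3 mice with most choroid plexus markers.

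**Figure D2:**
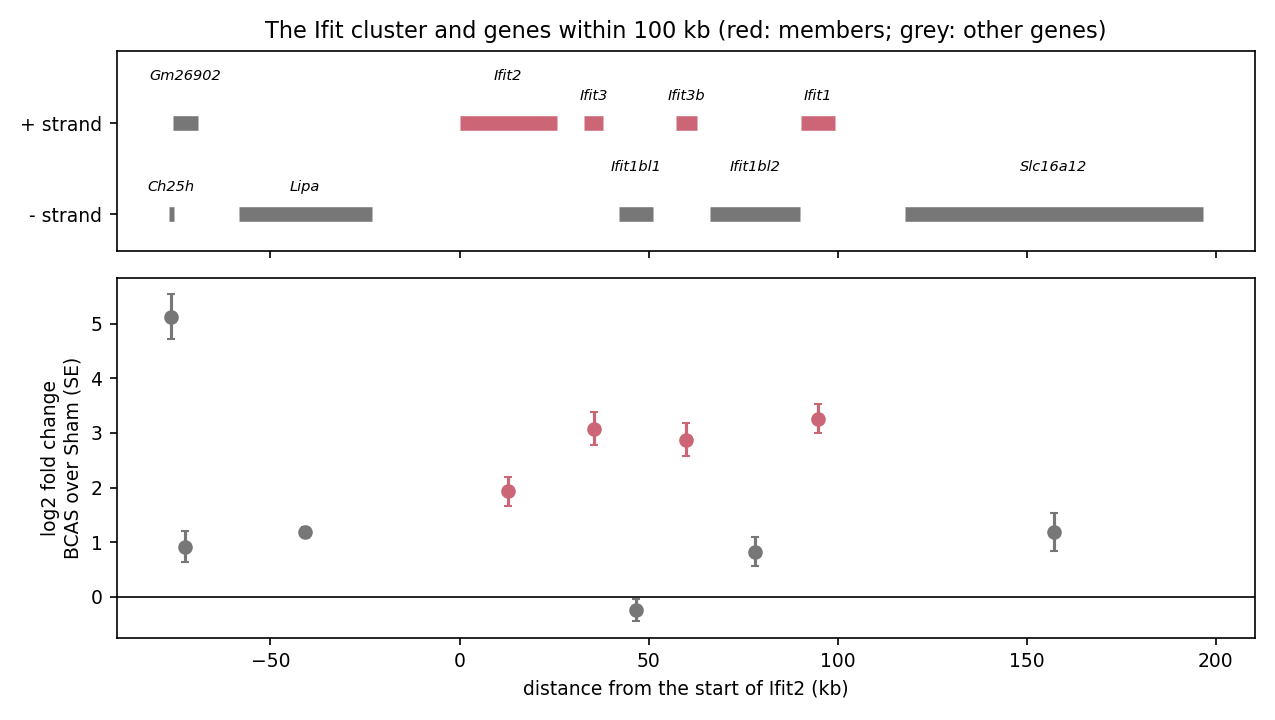
Upper panel, the Ifit cluster and tested genes within 100 kb by strand, against distance from the start of Ifit2 (kb); lower panel, the log2 fold change of each gene (BCAS over Sham) with its standard error. The 4 Ifit genes (red) lie between 1.93 and 3.26, with Ifit1bl1 at -0.24 and Ifit1bl2 at 0.83 among them, and Ch25h at 5.13 to the left.

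Relatives and neighbours of the other genes also had smaller fold changes. Cmpk2, a mitochondrial nucleotide kinase next to Rsad2, went from 27.4 ± 2.72 to 36.9 ± 4.85 CPM, and the log2 fold change was 0.43 (SE 0.12, edgeR adjusted P = 0.0279). Ifi27, the neighbour of Ifi27l2a, went from 38.7 ± 3.90 to 72.7 ± 15.4 CPM, and the log2 fold change was 0.91 (SE 0.15, edgeR adjusted P = 0.00254). Neither reached the fold threshold in the main fit with all 6 mice. The edgeR adjusted P of Cmpk2 was over 0.05 without any mouse but BCAS mouse 1 (0.0523 to 0.108). On the log2 scale the ratio of Rsad2 to Cmpk2 was 2.69 (SE 0.16) higher in BCAS mice and that of Ifi27l2a to Ifi27 was 4.26 (SE 0.44) higher, without overlap between groups (exact two-sided permutation P = 0.1, adjusted 0.217, n = 3 each). Of 7 relatives listed, 6 were in the tables, 4 were tested and 0 were DEGs in edgeR, DESeq2 or limma-voom, while 3 passed both an unadjusted P under 0.05 and edgeR's adjusted P upward. The share of all tested genes higher by adjusted P alone was 18%. Ifi44l and Ifi27l2b had too few counts to test.

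Along the pathway, the ligands were at the limit of detection. Of 18 type I interferon genes, 15 had 0 counts in all 6 libraries, and none was tested. Ifnb1 had 2 counts in 1 BCAS mouse, as had Ifnk and Ifnz, and 0 elsewhere. Of the other interferons, Ifng, the type II ligand, had 2, 2 and 0 counts in BCAS mice 1, 2 and 3 and Ifnl2 and Ifnl3 had none. At this depth no difference in a ligand was detectable.

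Of the 6 receptor, kinase and ISGF3 genes described here, 2 rose as DEGs, beside 8.47% of all tested genes. The 6 had a median log2 fold change of 0.76. Irf9, the DNA-binding partner in ISGF3, went from 9.68 ± 0.274 to 36.1 ± 8.04 CPM (SD, n = 3 per group), and the log2 fold change was 1.90 (SE 0.16, edgeR adjusted P = 5.99e-05). The receptor chain Ifnar2 had a log2 fold change of 1.21 (SE 0.13). Ifnar2 lost its call under glmTreat (adjusted P = 0.363), which tests against a log2 fold change of 1. Stat2, Tyk2 and Ifnar1 passed edgeR's adjusted P at 0.93, 0.59 and 0.41, below the fold threshold. Jak1 differed by -0.13 (SE 0.07, edgeR adjusted P = 0.182). Every one of the 6 lay below the smallest log2 fold change of the 10 targets, 1.93, though Irf9 was close to it.

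Of 5 inhibitors of the pathway, 3 rose as DEGs, beside 8.47% of all tested genes. Ptpn6, the phosphatase SHP-1 that is abundant in blood and microglial lineages, had a log2 fold change of 3.57 (SE 0.25, edgeR adjusted P = 2.75e-05). Socs3 rose by 2.83 (SE 0.29) and Socs1 by 1.04 (SE 0.26) on the log2 scale. Socs1 lost its call without Sham mouse 1 or 2 or BCAS mouse 2 or 3, at log2 fold changes of 1.05, 0.94, 0.91 and 0.95 and edgeR adjusted P values of 0.0575, 0.0641, 0.0460 and 0.0541. Ptpn11 and Pias1 were at 0.13 and -0.11 without a call.

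All 4 measured enzymes that attach ISG15 rose as DEGs, a call made for 8.47% of all tested genes. Uba7, the activating enzyme, had a log2 fold change of 2.67 (SE 0.19, edgeR adjusted P = 2.91e-05), and its levels were 3.60, 3.08 and 3.20 CPM in the Sham mice and 19.0, 17.2 and 26.6 CPM in the BCAS mice. The conjugating enzyme Ube2l6 and the ligases Herc6 and Trim25 were at 1.87, 1.83 and 1.73.

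Among 20 other type I targets, all 20 were up-regulated DEGs, a call made for 8.47% of all tested genes, with a median log2 fold change of 3.22. The list was drawn up with earlier results of these data known, and Cmpk2 and Ifi27, which were not called, stand with the relatives instead. The highest were Zbp1, a sensor of Z-form nucleic acid, at 6.29 (SE 0.59), Mx1, an antiviral GTPase, at 5.42 (SE 0.58) and Oas3, a synthetase of 2-5A, at 4.83 (SE 0.57). The lowest were Xaf1 at 1.8, Ifi35 at 1.99 and Ddx58 at 2.0. Zbp1, Mx1 and Oas3 had 1 to 15 counts per Sham mouse, so the size of their fold change is uncertain. An ISRE core was in the window of 6 of the 13 of these targets with a promoter entry, in that of 0 of the 4 ISG15 enzymes, 1 of 6 receptor and ISGF3 genes, 1 of 5 inhibitors and 1 of 6 microglia markers with one.

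**Figure D3:**
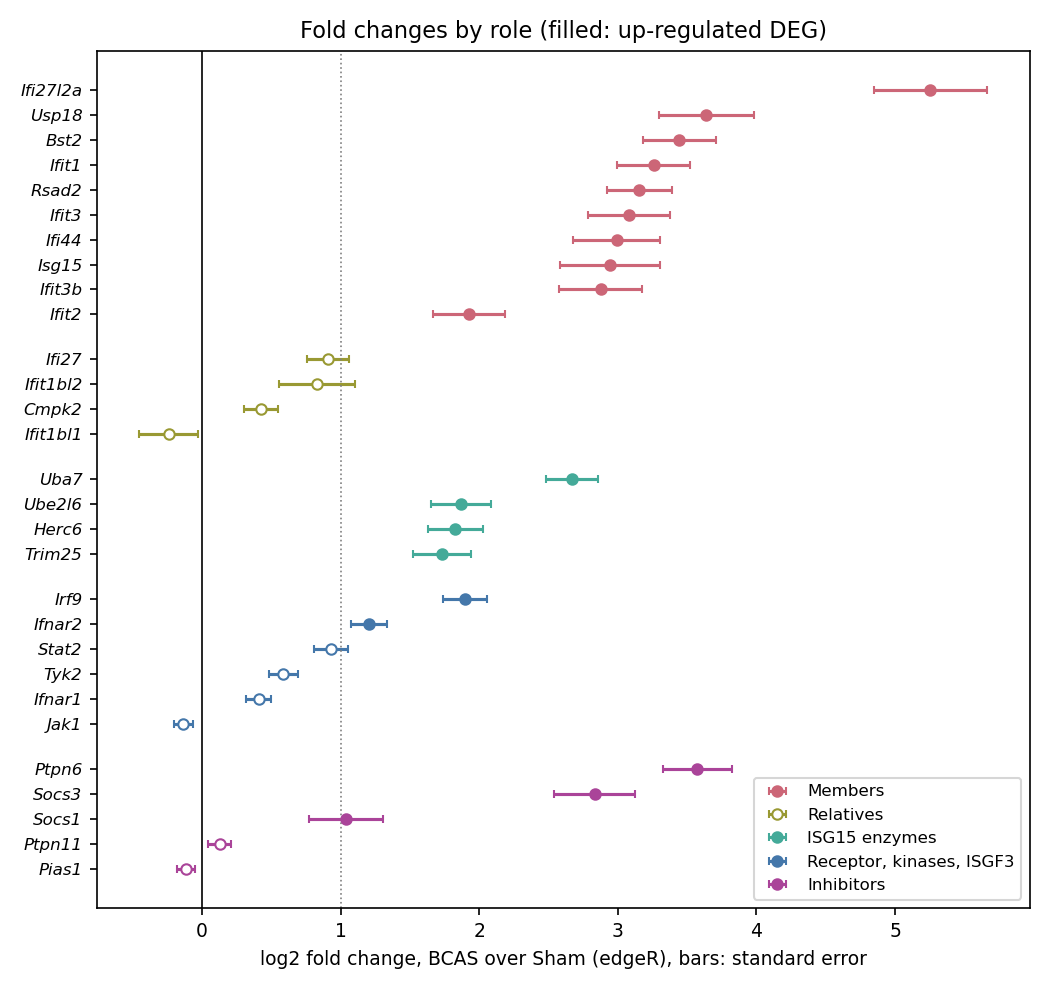
Log2 fold change (BCAS over Sham) with its standard error for the 10 targets, their relatives, the ISG15 enzymes, the receptor and ISGF3 genes and the inhibitors; filled symbols are up-regulated DEGs and the dotted line marks a log2 fold change of 1. All 10 targets lie at 1.93 or above, and all 4 relatives lie below 1.

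The hippocampus is a mixture of cells, and in such bulk tissue more cells of a type and more RNA per cell cannot be told apart. All 10 microglia markers rose as DEGs, beside 8.47% of all tested genes, with a median log2 fold change of 2.65 (Cx3cr1 2.73, P2ry12 1.54). Their summed level was 346 to 363 CPM in Sham and 1960 to 3157 CPM in BCAS mice. Of the 8 monocyte and neutrophil markers 5 were tested and 3 rose, with summed levels of 0.718 to 2.13 CPM in Sham and 6.33 to 13.9 CPM in BCAS mice. Among these, Ccr2 rose by 3.11 on the log2 scale, Ly6c2 went from 0 to 1 counts in Sham to 39 to 74 in BCAS mice, and of the neutrophil markers Ly6g was at 0 in every library. S100a8 went from 2, 4 and 9 counts in Sham mice 1, 2 and 3 to 5, 36 and 24 in BCAS mice 1, 2 and 3, too low for the edgeR filter but called by DESeq2 (log2 fold change 2.24, adjusted P = 0.0397). S100a9 was present in every library, with counts of 14, 3 and 28 across Sham mice and 14, 40 and 44 across BCAS mice (log2 fold change 1.25, edgeR adjusted P = 0.202). Of the 8 T cell markers 7 rose, with Cd3d and Cd3e at no more than 30 counts in any library. Cd3e and Trac lost their calls under glmTreat, which tests against a log2 fold change of 1, leaving 5. All 8 markers summed to 2.57 to 3.85 CPM in Sham and 11.5 to 12.8 CPM in BCAS mice. These sums include Lck, which was not called (log2 fold change 0.51, edgeR adjusted P = 0.178). Lck alone measured 1.74, 1.56 and 2.10 CPM in Sham mice 1, 2 and 3 and 2.28, 2.12 and 3.27 CPM in BCAS mice 1, 2 and 3.

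Of the 6 border macrophage markers 4 rose as DEGs (Mrc1 1.30, Cd163 1.10 on the log2 scale), beside 8.47% of all tested genes. The 6 summed to 10.3 to 14.8 CPM in Sham and 25.7 to 33.5 CPM in BCAS mice. Under glmTreat 0 of the 4 kept their calls. Without BCAS mouse 3, Cd163 and Cbr2 lost theirs, and Cbr2 also did without Sham mouse 1, Sham mouse 2 or BCAS mouse 1 (edgeR adjusted P = 0.0650, 0.0702 and 0.0533). Plasmacytoid dendritic cells, a major source of type I interferon, had 4 listed markers, of which 1 could be tested and 0 were DEGs. That list leaves out Siglech, placed with the microglia markers, and Bst2, 1 of the 10 genes, both of which were up-regulated DEGs. The 4 summed to 0.359 to 0.442 CPM in Sham and 0.331 to 1.79 CPM in BCAS mice, with Cd209d at 0 in every library. The tested marker, Ccr9, had an unadjusted P under 0.05 and an edgeR adjusted P of 0.0925, and DESeq2 and limma-voom did not call it either. Of the 7 astrocyte markers 2 were DEGs (Gfap 3.29, Aqp4 1.67), 6 passed the adjusted P upward and all 7 were higher in every BCAS mouse than in every Sham mouse, with summed levels of 4373 to 4670 CPM in Sham and 9363 to 9891 CPM in BCAS mice. None of the 7 endothelial markers and none of the 6 oligodendrocyte markers was a DEG in edgeR, DESeq2 or limma-voom, though 5 endothelial markers and 1 oligodendrocyte marker had an unadjusted P under 0.05, and 4 of the endothelial markers passed the adjusted P upward. Of the 8 hippocampal neuron markers 3 were down-regulated DEGs, a call made for 0.999% of all tested genes: Fibcd1 at -1.91, Neurod6 at -1.56 and Dsp at -1.31 on the log2 scale. Neurod6 and Dsp lost their calls under glmTreat, and Dsp also with the replicate number as a block (edgeR adjusted P = 0.0565) and without Sham mouse 1, Sham mouse 2 or BCAS mouse 2. With Bok (-0.89), Snap25 (-0.70) and Rbfox3 (-0.61), 6 of the 8 passed edgeR's adjusted P downward, which 13.2% of all tested genes did, and the list had a median of -0.79, with summed levels of 3027 to 3359 CPM in Sham and 1544 to 2179 CPM in BCAS mice. The part of these cell types in the rise of the 10 genes was not tested.

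Set against the summed counts of the 10 microglia markers, a scaling chosen after the values were seen, the 10 genes divided. Per 1000 microglia marker counts, Ifi27l2a was 1.30, 1.12 and 1.07 in Sham mice 1, 2 and 3 and 5.57, 5.42 and 8.07 in BCAS mice 1, 2 and 3, 5.45-fold higher in the mean. Usp18 (1.79-fold), Bst2 (1.58-fold), Ifit1 (1.39-fold) and Rsad2 (1.31-fold) were also higher in every BCAS mouse than in every Sham mouse, which on this scale held for 1.38% of all tested genes. Ifit3 (1.24-fold), Ifi44 (1.19-fold), Isg15 (1.11-fold) and Ifit3b (1.08-fold) overlapped between the groups. Ifit2 went the other way, from 32.9 ± 2.09 in Sham to 18.1 ± 3.38 in BCAS (SD, n = 3 each), 0.551-fold, without overlap, as 94.1% of all tested genes did. On this scale BCAS mouse 3 stayed the highest BCAS mouse for Ifi27l2a, Usp18, Bst2, Ifit1 and Ifit3, and it was not the highest for Rsad2, Ifi44, Isg15, Ifit3b and Ifit2.

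**Figure D4:**
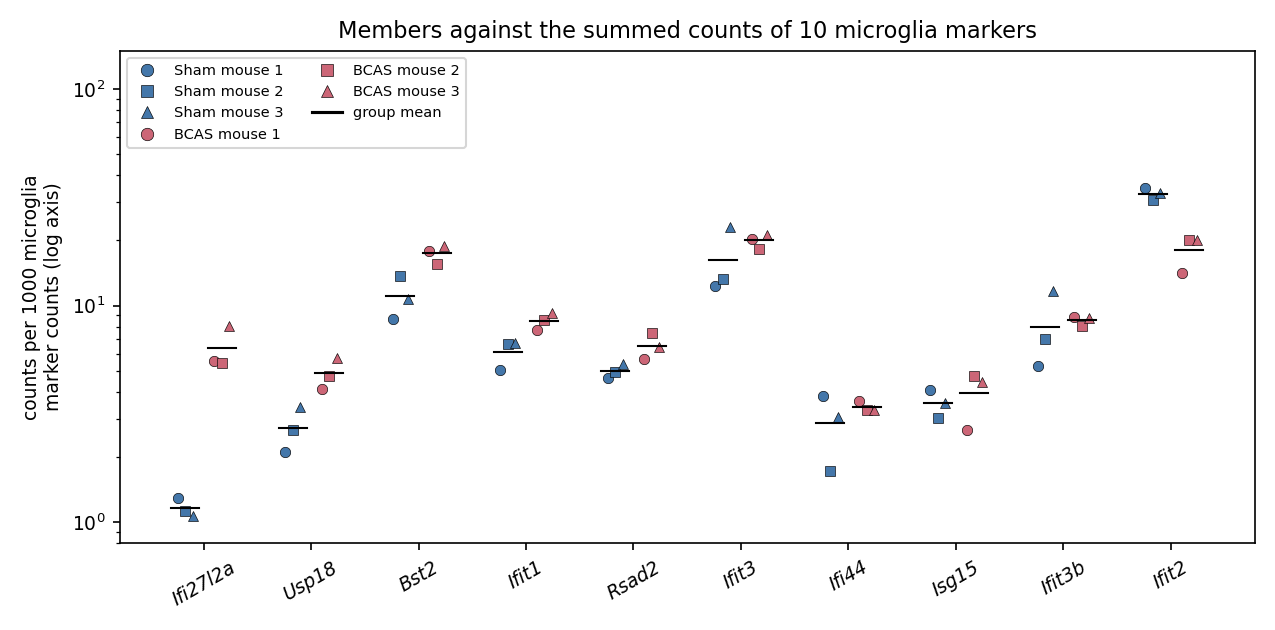
Counts of each gene per 1000 summed counts of 10 microglia markers, on a log axis, with 1 symbol per mouse (blue, Sham; red, BCAS) and a black line at each group mean. Ifi27l2a, Usp18, Bst2, Ifit1 and Rsad2 keep the groups apart with BCAS higher, 4 genes overlap, and Ifit2 is lower in BCAS (18.1 against 32.9).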

How the data were processed

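RNA-seq of the whole right hippocampus of 6 mice, 3 per group, was analysed, with groups taken from the labels. The authors trimmed the reads with Trim Galore, aligned them to mm10 with HISAT2 and sorted them with SAMtools 1.9, and they deposited raw counts per gene from featureCounts. The methods name featureCounts 1.6.3 and RefSeq genes, whereas the file headers name 2.0.3 and GENCODE vM20. Per the file headers, mates were counted separately, strand was ignored and reads mapping to several places were left out, so a fragment can count as a pair of reads and near copies lose reads. Inside the BCAS tables the columns carry other mouse numbers, and the numbers of the labels are used here.

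Of 54752 genes, 54723 were matched to a symbol. Genes were kept by filterByExpr, normalized by TMM and tested with edgeR 4.0.16 in R 4.3.3 (limma 3.58.1, DESeq2 1.42.0). P values were adjusted by the Benjamini-Hochberg method over 18617 tested genes. TMM factors were 0.964 to 0.984 in Sham and 1.01 to 1.05 in BCAS libraries. The members and lists were chosen with earlier results of these data known. The named genes are the 10 targets, the genes of the ligand, receptor, inhibitor, ISG15 enzyme and relative lists, the 3 highest and 3 lowest of the other targets, tested genes within 100 kb of the Ifit genes, genes overlapping a member, and the first 2 markers of a list, and 1 gene of the receptor list is not reported here. Alternatives were DESeq2, limma-voom, RLE, library totals, other filters and call rules, glmTreat, counts halved, the replicate number as a block and leaving out each mouse. The steps were tested on simulated data. The ratios of counts of a gene pair and the Ifit3b share were compared with an exact permutation test.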

Additional observations from a re-analysis of the deposited data

How the results depend on the processing

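All 10 genes were called in each of the 17 settings, the main one included, and their fold changes kept their direction. The Ifit3b share, computed per exon length, with a count minimum and without each mouse, kept its direction too. Leaving out each mouse in turn moved the median log2 fold change of the 10 genes from 2.85 (without BCAS mouse 3) to 3.30, that of Ifit2 from 1.58 to 2.17 and that of Ifi27l2a from 4.73 to 5.46. It moved the difference in the Ifit3b share from -4.02 to -1.76 points. The highest adjusted P of the 10 genes in any setting was 0.0175, for Ifit2 under glmTreat, which tests against a log2 fold change of 1. Of the 39 tested genes of the receptor, inhibitor, ISG15 enzyme, relative and other target lists, 29 were called, 27 under glmTreat and 35 by adjusted P alone, with the other settings between. In the main fit 8.47% of all tested genes were up-regulated DEGs. Socs1 and Ifnar2 lost their calls under glmTreat, and Socs1 also without 4 of the mice in turn. Calls were gained as well. The count was 30 with library totals, and it stayed at 29 without Sham mouse 1 and without BCAS mouse 2, where Socs1 was lost. Among the named markers, Cd3e, Trac, Cd163, Cbr2, Mrc1, Neurod6 and Dsp lost theirs in the settings given beside them. The ratios of gene pairs, the values per microglia marker count and the other neighbours of the Ifit cluster were not computed under the alternatives. Over all tested genes the DEGs numbered 1762, 818 under glmTreat and 5819 by adjusted P alone. Library totals moved the median log2 fold change of all genes from 0.018 to 0.095. With the replicate number as a block, 10 of the 10 genes and 29 of those 39 were called and the DEGs numbered 1595. Same-numbered mice did not deviate together (correlations of 0.036, -0.31 and -0.16), so the numbers were not taken to pair the mice. With 3 mice per group the smallest exact P is 0.1, and Sham levels of Ifi27l2a rest on 13 to 16 counts.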

Other observations

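On the scale of counts per 1000 microglia marker counts, chosen after the values were seen, all 6 receptor, kinase and ISGF3 genes were lower in every BCAS mouse than in every Sham mouse, as 94.1% of all tested genes were, with ratios of the means from 0.141 (Jak1) to 0.555 (Irf9). Of the 5 inhibitors, 3 were lower, Socs3 overlapped at 1.03, and Ptpn6 was higher at 1.74. Of the 4 ISG15 enzymes, 3 were lower and Uba7 overlapped at 0.945. The 4 tested relatives were lower, at 0.132 to 0.288. Of the 20 other type I targets, 8 were higher, as 1.38% of all tested genes were, 7 overlapped and 5 were lower, from 0.513 (Xaf1) to 11.7 (Zbp1), with a median ratio of 1.36, beside 1.27 for the 10 genes described above. A gene falls on this scale whenever it rises less than the microglia markers do, and no test was made of these ratios.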
